A study of Mus musculus with 5 samples.

Results

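The 9 genes described here encode regulators of mRNA decay and stability. They were chosen by name from the 20365 gene names counted in the libraries: *Zfp36*, *Zfp36l1*, *Zfp36l2*, *Elavl1*, *Khsrp*, *Tia1*, *Pum2*, *Zc3h12a* and *Btg2*. Each gene was represented by 1 counted interval, the one with the highest mean level in the S4U-labeled libraries. All 9 passed the low-count filter and were tested for both readouts. In cultured cardiac fibroblasts (CF) all 9 transcripts carried more T>C conversions after 12 h of labeling than without it, as did 94.5% of the 19240 intervals tested. The mean labeled T>C conversion rate of the 9 ran from 0.0300 for *Btg2* to 0.0462 for *Elavl1*. For none of the 9 did a difference in read counts between labeled and unlabeled CF pass edgeR's test after adjustment, nor did any of the 9807 genes tested. *Btg2* and *Elavl1* passed it when the replicate number was fitted as a block, although no label states that the numbers pair the samples.

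How long an mRNA lasts is set in large part by proteins that bind its 3′ UTR. AU-rich elements (AREs), built on the pentamer AUUUA, are bound by ZFP36 family proteins and KHSRP, which speed decay, and by ELAVL1 (HuR), which protects the mRNA. PUM2 binds a different element and recruits deadenylases, and ZC3H12A (Regnase-1) is itself an endonuclease that cuts inflammatory mRNAs. In fibroblasts these proteins control short-lived mRNAs of cytokines, growth factors and immediate early genes, and the mRNAs of several of them carry AREs of their own.

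CF came from healthy hearts of adult male C57Bl/6J mice, were depleted of CD31+ and CD45+ cells and were grown to confluency, 2 wells per sample. The 3 labeled samples received 0.1 mM S4U (4-thiouridine, a uridine analog) for 12 h, and the 2 unlabeled samples were kept in parallel for the same time without it. Iodoacetamide turns S4U into a base that is read as C in place of T, so the T>C conversion rate (conversions divided by covered T positions) measures how much of an mRNA was made during the labeling. The rate depends on synthesis, decay and S4U uptake together, and 1 labeling time gives no half-life.

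Between 506045 and 1843024 reads per library fell on 1 interval per gene, fewest in labeled replicate 3. The T>C rate of whole libraries was 0.0353 to 0.0358 with S4U and 0.000652 to 0.00111 without. Labeled replicate 1 differed from labeled replicates 2 and 3 by a chi-square per degree of freedom of 16.6 and 10.96, against 2.04 between the latter, and the unlabeled pair differed by 16.1. All 8 fibroblast markers were detected, with a summed level of 31372 to 42382 CPM. Here CPM are reads per 1000000 reads counted in that library, except where the deposited CPM is named. The markers of other cell types summed to at most 199 (endothelial cell, 4 of 4 detected in all libraries), 104 (immune cell, 5 of 6), 13.8 (mural cell, 2 of 4), 7.03 (cardiomyocyte, 1 of 4), 6.69 (Schwann cell, *Sox10* at 0) and 5.93 (mesothelial cell, *Msln* at 0). In such bulk samples fewer cells of a type and less RNA per cell cannot be told apart.

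The counted intervals of the 9 genes lie in their 3′ UTRs (GRCm39, GENCODE annotation), in the last exon of the main transcripts. *Zfp36* was counted on chr7:28076209-28076982, *Zfp36l1* on chr12:80154534-80156362, *Zfp36l2* on chr17:84491352-84493180, *Elavl1* on chr8:4334781-4339599, *Khsrp* on chr17:57328049-57329692, *Zc3h12a* on chr4:125012207-125013071 and *Btg2* on chr1:134002603-134005106, all on the minus strand. *Tia1* was counted on chr6:86407350-86410387 and *Pum2* on chr12:8799721-8802583, both on the plus strand. The annotated *Elavl1* gene reaches 2205 bases and *Zfp36l2* 220 bases past the 3′ end of its interval, so that reads from mRNAs ending there would not be counted. The *Btg2* interval runs 305 bases beyond the annotated gene, and 163, 77 and 33 bases of the *Zfp36l1*, *Tia1* and *Khsrp* intervals are coding in at least 1 annotated transcript. *Gm44790* overlaps the *Tia1* interval on the same strand, and *Gm17949* lies opposite the *Khsrp* interval.

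Each interval was searched on its transcribed strand for the ARE pentamer ATTTA, for the longer ARE core TTATTTATT, which contains that pentamer, and for TGTANATA, the element recognised by Pumilio proteins. The longer core is the sequence to which ZFP36 proteins bind best, and it was found in the mRNAs of the ZFP36 family itself and in *Elavl1*. The matches are printed 5′ to 3′ from GRCm39 with up to 10 flanking bases on each side and the motif in capitals, at chr7:28076376-28076404 (*Zfp36*), chr12:80154941-80154969 (*Zfp36l1*), chr17:84492342-84492370 (*Zfp36l2*), chr8:4335788-4335816 (*Elavl1*, the first of 8), and chr12:8800155-8800182 and chr12:8800408-8800435 (*Pum2*).
Zfp36: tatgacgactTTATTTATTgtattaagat
Zfp36l1: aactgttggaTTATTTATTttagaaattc
Zfp36l2: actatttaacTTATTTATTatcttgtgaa
Elavl1: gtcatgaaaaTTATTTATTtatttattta
Pum2, first site: tttatagagaTGTATATAgaattatagt
Pum2, second site: tgtacagaatTGTATATActtataattg

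*Zfp36*, *Zfp36l1* and *Zfp36l2* each held 1 copy of TTATTTATT, which was present in 4.01% of the intervals with a length within 20% of that of *Zfp36* and in 8.63% of those close to the other 2 in length. The site of *Zfp36* lay 177 bases before the interval's 3′ end, that of *Zfp36l1* 417 bases and that of *Zfp36l2* 1000 bases. In *Elavl1* 8 copies, overlapping ones counted separately, lay close together, with their own 3′ ends 1017 to 971 bases before that of the interval. Of 740 intervals of similar length, *Elavl1* among them, 22.3% held a copy, and only that of *Elavl1* itself (0.135%) held as many as 8. Each share among intervals of similar length includes the member's own interval. *Elavl1* also had 18 ATTTA pentamers (median 8 in intervals of similar length, as many in 4.59%), and *Zfp36l1* had 9 (median 3, as many in 4.80%). TTATTTATT was not found in the intervals of *Khsrp*, *Tia1*, *Pum2*, *Zc3h12a* and *Btg2*, which held 1, 8, 10, 3 and 5 pentamers. The 2 Pumilio elements stood in *Pum2* itself, where 46.2% of intervals of similar length held at least 1, and none of the other 8 members had this element in its interval. Over all 11177 intervals searched, ATTTA occurred in 71.0%, TTATTTATT in 8.56% and TGTANATA in 28.4%. The intervals were matched by length and not by base composition. T made up a median of 29.3% of the intervals searched, against 33.4% in *Elavl1* and 32.3% in *Zfp36l1*. The part of this in the motif counts was not tested. A match is a description of the letters and not evidence of binding.

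**Figure D1:**
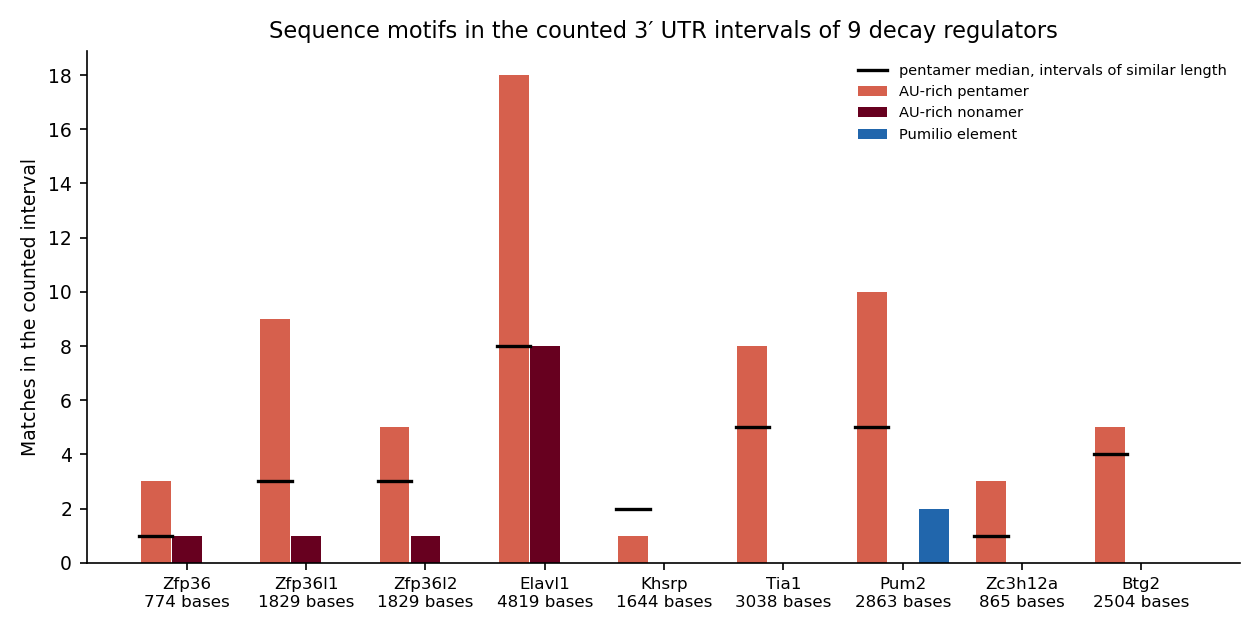
Number of matches to the AU-rich pentamer, the AU-rich nonamer and the Pumilio element (y axis, matches) in the counted interval of each gene, whose length is given under its name. Black lines are the median pentamer count of intervals with a length within 20%. *Elavl1* had the most matches, 18 pentamers and 8 nonamers, and both Pumilio elements were in *Pum2*.

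The first comparison asked whether each transcript carried more T>C conversions with S4U than without. All 9 members did, with an adjusted p from 1.80e-05 (*Pum2*) to 0.000767 (*Zc3h12a*) in a beta-binomial test. This was the rule in CF, since 94.5% of the 19240 intervals tested were called, so the count says nothing particular about the members. In each of the 9 genes the lowest labeled library lay above the higher unlabeled one. The share of all intervals with this separation was not computed, so it says nothing particular about the members either.

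The members were then placed among the 2107 genes with 1000 or more covered T positions in each of the libraries, whose median rate was 0.0388 (quartiles 0.0343 and 0.0422). The median of the 9 members was 0.0377. *Elavl1* stood at the 93.5th percentile and *Pum2* at the 87.5th, both above the upper quartile, whereas *Btg2* stood at the 15.9th, below the lower quartile. In labeled replicate 1 alone *Btg2* (0.0362) was above that quartile and above *Zfp36*, *Khsrp*, *Tia1*, *Zc3h12a* and *Zfp36l2*. It was the lowest member in labeled replicates 2 and 3. *Zfp36l1* was at percentile 26.1 and *Zfp36* at 32.8. Of the members only *Elavl1*, *Pum2* and *Zfp36l1* themselves reached that depth, and the percentiles are descriptions without a test. In the order of mean rates *Elavl1*, *Pum2*, *Zfp36l2*, *Zc3h12a*, *Khsrp*, *Tia1*, *Zfp36*, *Zfp36l1* and *Btg2*, none of the 8 pairs of neighbours differed by more than the larger of their SDs. Only the last pair, *Zfp36l1* above *Btg2*, kept its order in 3 of 3 labeled libraries.

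**Figure D2:**
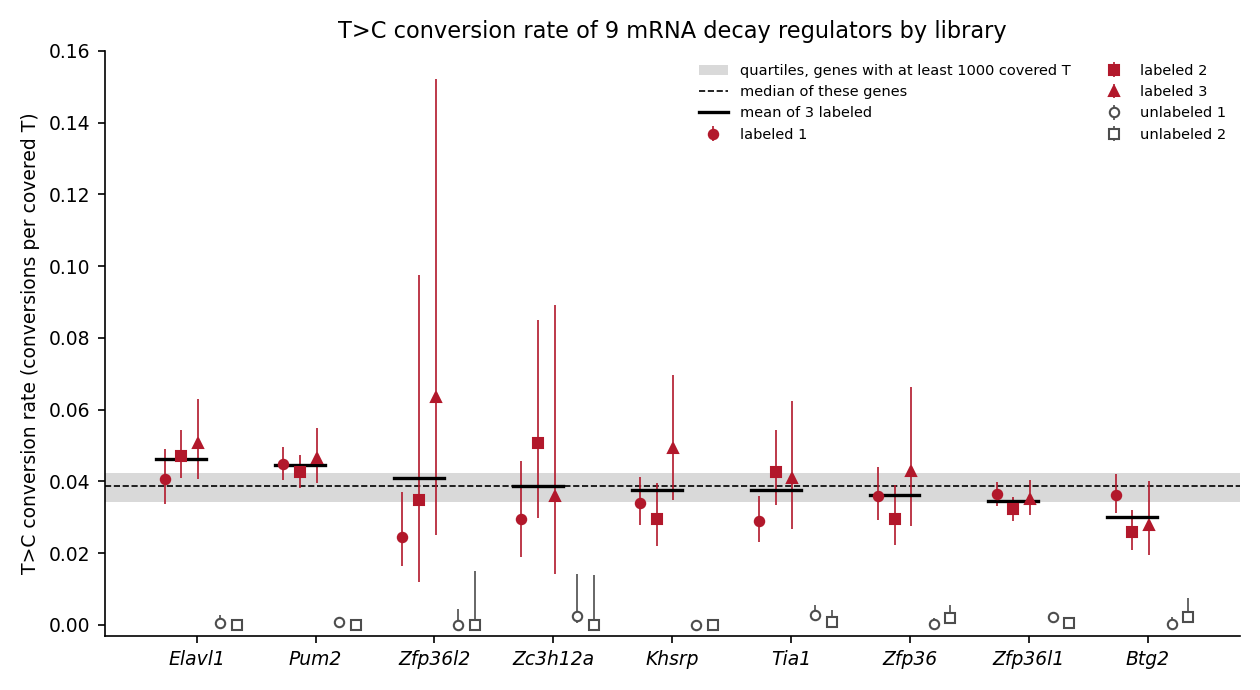
T>C conversion rate (y axis, conversions per covered T position) of each gene in the 3 labeled (red) and 2 unlabeled (open) libraries, with 95% Wilson intervals, the labeled mean as a black line, and the median and quartiles of 2107 deeply covered genes as a dashed line and grey band. All labeled values lie above the unlabeled ones, and the intervals are widest for *Zfp36l2* and *Zc3h12a*.

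The members of the ZFP36 family differed in abundance. *Zfp36l1* was the most abundant of the 9 members, with 455, 405 and 466 CPM in the labeled libraries and 513 and 628 in the unlabeled ones. This placed it at the 96.8th percentile of the 11179 genes with a covered T in every library. Its T>C rate was 0.0364, 0.0322 and 0.0352 (0.0346 ± 0.00215, mean ± SD, n = 3), against 0.00209 and 0.000608 without S4U. With 5483 or more covered T positions per library it was the most deeply covered member. The 3 labeled levels were all below the 2 unlabeled ones, as in 13.1% of the 9807 genes tested, and edgeR's quasi-likelihood test gave a log2 fold change of -0.30 (SE 0.25) with an adjusted p of 1.00. Without unlabeled replicate 1 it was -0.48 and without unlabeled replicate 2 -0.093.

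*Zfp36*, which encodes tristetraprolin, the founding member of the family, was present at 68.5, 52.7 and 33.6 CPM in labeled CF and at 67.8 and 55.2 in unlabeled CF. The groups overlapped, and the log2 fold change was -0.16 (SE 0.34). Its rate was 0.0358, 0.0294 and 0.0430 (0.0361 ± 0.00680, n = 3), resting on 108, 63 and 17 reads. Without S4U 1 conversion was seen in 2848 covered T positions and 3 in 1568.

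*Zfp36l2* was the least abundant member and the most uneven. It had 55, 4 and 3 reads in the labeled libraries and 50 and 11 in the unlabeled ones, or 34.9, 3.35 and 5.93 against 27.1 and 11.04 CPM. Both replicates numbered 1 were high and the other three libraries low, with a log2 fold change between groups of -0.21 (SE 0.88) that moved to -2.09 without labeled replicate 1 and to 0.55 without unlabeled replicate 1. The labeled rates of 0.0246 (22 of 894 T positions), 0.0349 (3 of 86) and 0.0635 (4 of 63) had a mean of 0.0410 ± 0.0201 (n = 3). In labeled replicate 3 all 4 conversions were on 1 read. Its reads covered 16.3 and 16.9 T positions each in the replicates numbered 1 and 21.0 to 22.9 in the other three libraries, and the part of this in the uneven level was not tested. Pooled over the 3 labeled libraries the rate was 0.0278, below that of every other member, so the place of *Zfp36l2* in the order rests on 7 reads. No conversion was seen without S4U, which allows a rate of up to 0.00356 and 0.0119 in the 2 libraries.

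*Elavl1*, the stabilising ARE-binding protein HuR, had the highest mean rate of the members, although in each labeled library 1 other member (*Pum2*, *Zc3h12a* and *Zfp36l2* in turn) was higher. The labeled libraries gave 0.0408, 0.0472 and 0.0507 (0.0462 ± 0.00502, n = 3), and the unlabeled ones gave 1 conversion in 2032 T positions and none in 2494. A conversion was present in 67.4%, 78.6% and 82.1% of its labeled reads, on average (76.0%) the highest share of the members. Each of these reads covered 30.2, 37.5 and 37.9 T positions, against 14.3 to 27.1 for the other 8 members. The part of this in the share of converted reads was not tested, and the rate is per T position. Its level was 54.6, 86.2 and 77.1 CPM with S4U and 30.9 and 64.2 without. The groups overlapped, and the log2 fold change was 0.69 (SE 0.43), or 0.20 without unlabeled replicate 1 and 1.35 without unlabeled replicate 2.

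*Khsrp*, a KH-domain protein that recruits the decay machinery to AREs, gave rates of 0.0339, 0.0296 and 0.0494 (0.0377 ± 0.0104, n = 3). No conversion was found in 3320 and 2180 covered T positions without S4U, which allows rates of up to 0.000904 and 0.00138. It was measured at 81.9, 62.8 and 59.3 CPM in labeled CF and at 76.5 and 105 in unlabeled CF. The groups overlapped, with a log2 fold change of -0.34 (SE 0.30), or -0.60 without unlabeled replicate 1 and -0.046 without unlabeled replicate 2.

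*Tia1* encodes a stress granule protein that silences translation of ARE-bearing mRNAs. Its rates were 0.0289, 0.0427 and 0.0410 (0.0375 ± 0.00752, n = 3), with 8 conversions in 2773 T positions and 1 in 1316 without S4U. The level of 76.8, 55.2 and 39.5 CPM in labeled CF spanned the 64.6 and 52.2 of unlabeled CF. A shorter version of the same interval, 2430 bases long, held 199 of its 207 labeled reads at nearly the same rate (0.0373).

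*Pum2*, a Pumilio protein that recruits the CCR4-NOT deadenylase, combined a high level with a high rate. The rate was 0.0448, 0.0425 and 0.0466 in the labeled libraries (0.0446 ± 0.00204, n = 3), the smallest SD of the members. It was 8 in 10675 T positions and 0 in 7037 in the unlabeled ones. The level of 227, 249 and 231 CPM lay below the 251 and 286 of unlabeled CF without overlap, as in 13.1% of the genes tested, but by little, with a log2 fold change of -0.11 (SE 0.23) that was 0.030 without unlabeled replicate 2. A second *Pum2* interval, chr12:8783688-8791710, lies upstream of the 3′ UTR with 11 of its bases in exons and had a lower pooled rate of 0.0260 over 52 labeled reads (0.0237 ± 0.00472, n = 3).

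*Zc3h12a* had few reads, 45, 17 and 6 with S4U and 28 and 14 without. Its rates of 0.0295, 0.0508 and 0.0360 (0.0388 ± 0.0109, n = 3) had 95% Wilson intervals that overlapped throughout, from 0.0189-0.0455 in labeled replicate 1 to 0.0141-0.0890 in labeled replicate 3. These intervals cover counting error only, and T positions of 1 read are not independent. The level was 28.6, 14.2 and 11.9 CPM against 15.2 and 14.1, with labeled replicate 1 highest. The log2 fold change of 0.44 (SE 0.47) became -0.052 without that library.

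*Btg2*, an antiproliferative adaptor that binds the CCR4-NOT deadenylase and speeds poly(A) shortening, was the member with the lowest mean rate and the largest difference in reads. Its rates were 0.0362, 0.0260 and 0.0279 (0.0300 ± 0.00544, n = 3), against 1 conversion in 2732 T positions and 2 in 954. Its level was 117, 102 and 73.1 CPM in labeled CF and 57.0 and 38.1 in unlabeled CF. All 3 labeled libraries were above both unlabeled ones, as in 8.2% of the genes tested. The log2 fold change was 1.12 (SE 0.32, 95% confidence interval 0.37 to 1.87), and without any 1 library it stayed between 0.90 and 1.39. With edgeR's quasi-likelihood test p was 0.00969 before adjustment and 0.626 after it. With the replicate number as a block (1 residual degree of freedom) the log2 fold change was 1.25 and edgeR's adjusted p 6.75e-08. No label states that the numbers pair the samples. A rise at an unadjusted p below 0.05 was found for 2.84% of the genes.

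**Figure D3:**
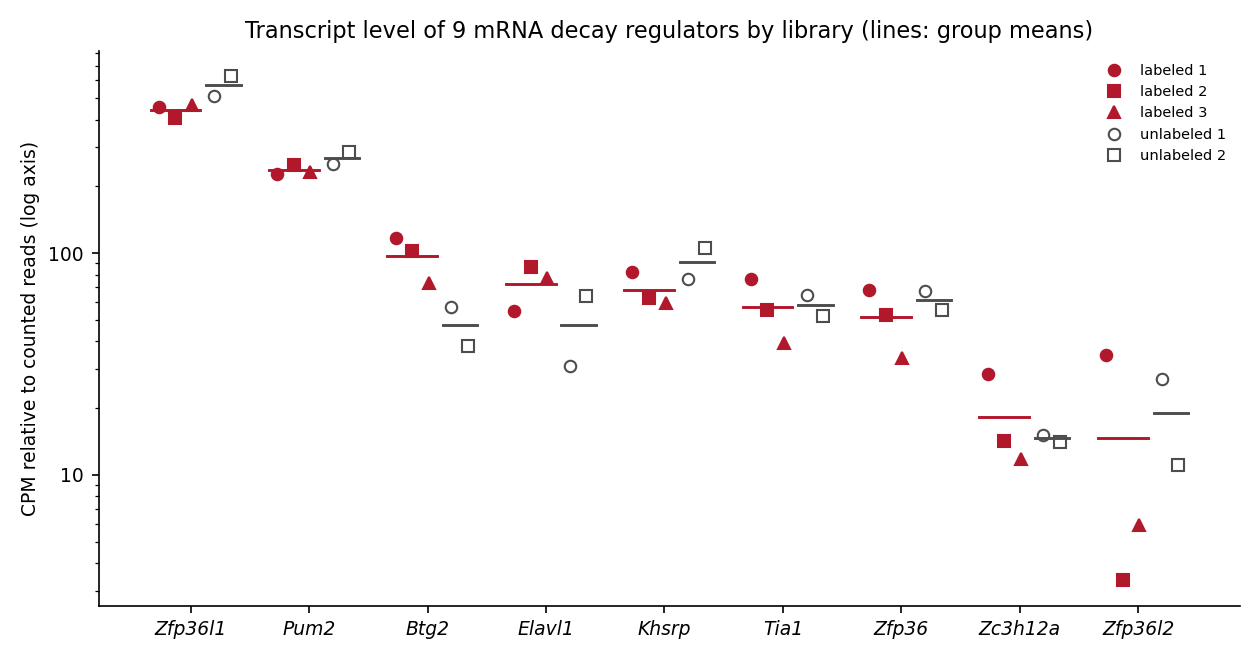
Level of each gene in CPM relative to counted reads (y axis, log scale) in the 3 labeled (red) and 2 unlabeled (open) libraries, with lines at the group means. *Zfp36l1* and *Pum2* were the most abundant, *Btg2* was higher in all labeled libraries, and *Zfp36l2* was high in both replicates numbered 1.

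Across the 9 members, 0 were called for reads in either direction by edgeR at an adjusted p below 0.05, as were 0% of the 9807 genes tested, both for higher and for lower reads. Before adjustment 1 member (*Btg2*) passed, beside 279 genes higher and 305 lower in all. DESeq2 called 13 genes higher and 5 lower, none of them among the 7 members for which it gave an adjusted p. With the replicate number as a block (1 residual degree of freedom) edgeR called 528 genes higher and 618 lower. Among these were 2 members, *Btg2* and *Elavl1*, both higher. No label states that the numbers pair the samples. The median log2 fold change was -0.11 for the 9 members and 0.018 for all genes tested. It was positive for 4 members and negative for 5, and only those of *Btg2*, *Elavl1*, *Khsrp* and *Zfp36l1* kept their sign in all fits made.

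**Figure D4:**
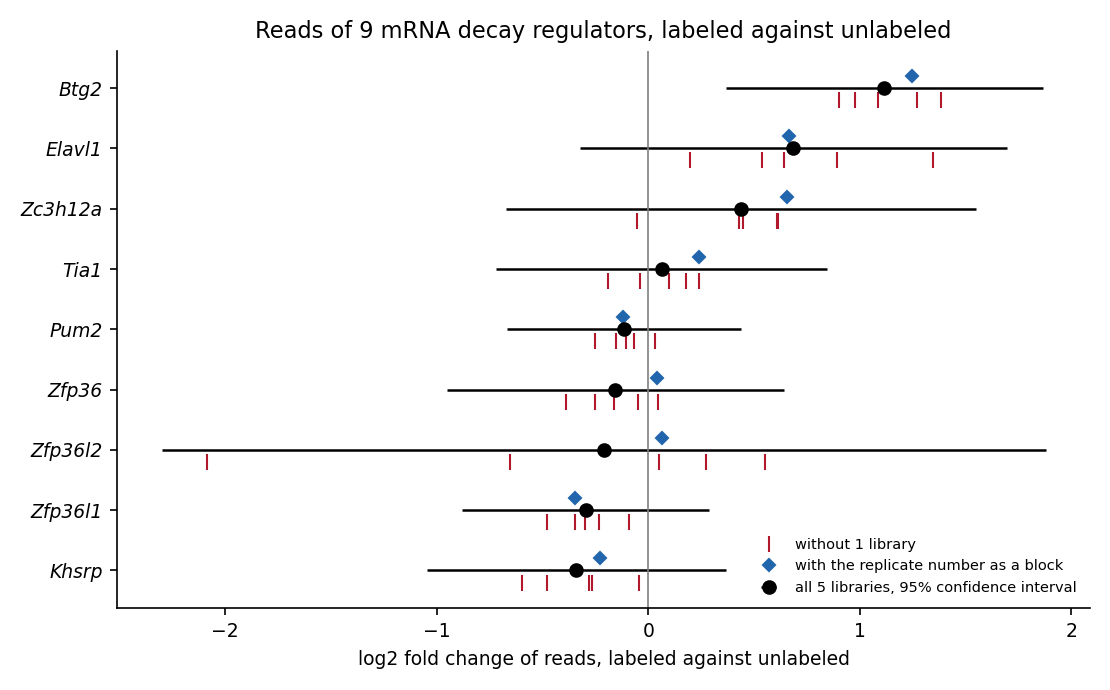
log2 fold change of reads, labeled against unlabeled (x axis), for each gene. Black points with bars are edgeR estimates with 95% confidence intervals from all 5 libraries, red ticks are the estimates without 1 library, and blue diamonds those with the replicate number as a block. The interval of *Btg2* (0.37 to 1.87) alone excludes 0, and the estimates for *Zfp36l2* spread most.

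In level, the members ran from 442 ± 32.6 CPM (*Zfp36l1*, mean ± SD, n = 3 labeled libraries) through *Pum2* (236 ± 12.1), *Btg2* (97.5 ± 22.5), *Elavl1* (72.6 ± 16.3), *Khsrp* (68.0 ± 12.1), *Tia1* (57.2 ± 18.7), *Zfp36* (51.6 ± 17.5) and *Zc3h12a* (18.2 ± 9.03) to *Zfp36l2* (14.7 ± 17.5). These are counts of 3′ ends, at 1 read per captured end, and were not divided by interval length. *Zfp36l1*, *Pum2* and *Btg2* each differed from the next member by more than the larger SD, as did *Zfp36* from *Zc3h12a*. *Btg2* was above *Elavl1* in 2 of 3 labeled libraries. The neighbours among *Elavl1*, *Khsrp*, *Tia1* and *Zfp36* did not differ beyond that spread, nor did *Zc3h12a* and *Zfp36l2*. Of the 9 members 7 were above the median gene (31.8 CPM). On the scale of the deposited CPM no pair of neighbours differed beyond the larger SD. There every member was lowest, among labeled libraries, in replicate 3, and the values ran from 0.205 (*Zfp36l2*, labeled replicate 3) to 65.2 (*Zfp36l1*, unlabeled replicate 1).

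**Figure D5:**
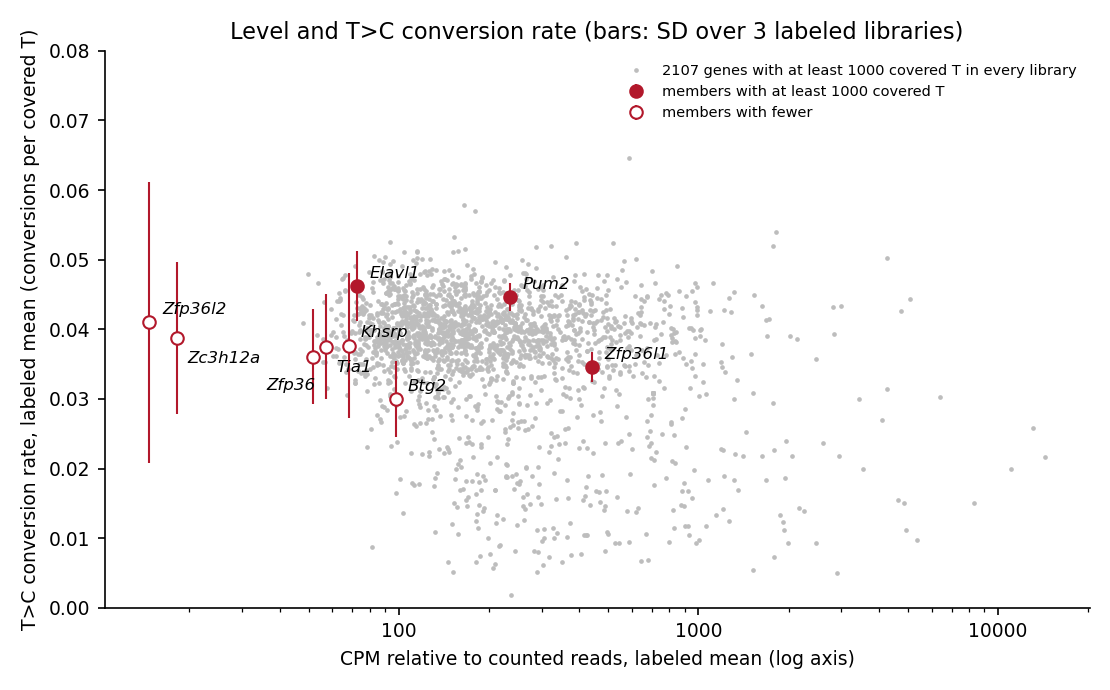
Mean T>C conversion rate (y axis, conversions per covered T position) against mean level (x axis, CPM relative to counted reads, log scale) over the 3 labeled libraries, for 2107 deeply covered genes (grey) and the 9 members (red, with SD over libraries). *Elavl1* and *Pum2* lie in the upper part of the grey cloud and *Btg2* in the lower part.

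The wider mRNA decay machinery was taken from a list of 94 other genes for deadenylation, decapping, the exosome, nonsense-mediated decay and RNA binding, of which 92 were in the tables. Of the 83 tested for the rate 82 were higher with S4U, where 94.5% of all intervals were, and the exception was the decapping factor *Dcp1b* (8 covered T positions in its shallowest library). The 15 with 1000 or more covered T positions per library had a median rate of 0.0402, beside 0.0388 for all genes of that depth, and 9 of the 15 were above that value. The highest were *Ythdf2* (0.0470 ± 0.00300), an m6A reader that recruits deadenylases, the Lsm ring subunit *Lsm6* (0.0452 ± 0.00236) and the Roquin family gene *Rc3h2* (0.0442 ± 0.00638). Among the lowest were *Celf1* (0.0351 ± 0.00135), which binds GU-rich elements, and *Tob1* (0.0357 ± 0.00166), an antiproliferative deadenylation adaptor related to *Btg2*.

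Of the 78 machinery genes tested for reads 0 were called in either direction by edgeR, as were 0 of all 9807 genes, and their median log2 fold change was 0.090. At an unadjusted p below 0.05, 4 of the 78 were higher and 0 lower, beside 279 higher (2.84%) and 305 lower of the 9807 genes tested. The 4 were *Edc4*, *Exosc2*, *Exosc6* and *Ythdf2*, with log2 fold changes from 0.74 to 1.51.

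Among 10 known ARE-bearing mRNAs bound by ZFP36 proteins, 7 had enough covered T positions for the test and all 7 had a higher rate with S4U, as did 94.5% of all intervals. *Ptgs2*, which encodes the prostaglandin synthase COX-2, had the highest rate of those with at least 100 covered T positions, at 0.0680 ± 0.00635 (n = 3). Its reads were 179, 46 and 28 with S4U and 20 and 4 without, a log2 fold change of 3.22 (SE 0.63) with an edgeR p of 0.00138 that was 0.532 after adjustment. *Fos* had a rate of 0.0647 ± 0.0194 on 10, 4 and 2 reads. The cytokine genes *Il6* (0.0414 ± 0.00677) and *Cxcl1* (0.0368 ± 0.000831), and *Vegfa* (0.0382 ± 0.00235) and *Myc* (0.0361 ± 0.0126) were closer to the median gene. *Ier3* (0.0327 ± 0.00108) was below the lower quartile of the deeply covered genes (0.0343), at the 21.0th percentile. *Ier3* had a log2 fold change of reads of 0.71 (adjusted p = 0.759 in edgeR's test). *Tnf* had 0 to 2 reads per library, *Csf2* none, and *Il1b* none in labeled CF and 3 in unlabeled replicate 1. Of the 6 tested for reads 0 were called in either direction after adjustment, as were 0 of all 9807 genes. Before adjustment 2 of the 6 (*Ptgs2* and *Ier3*) were higher and 0 lower at a p below 0.05, beside 2.84% of all genes higher, and 4 of the 6 had every labeled library above both unlabeled ones, beside 8.2% of all genes.

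For 7 of the members the tested gene with the most similar level pattern over the 5 libraries is given, by the root mean square difference of centred log2 levels. The closest were *Sipa1l2* to *Pum2* (0.016), *Csnk1g3* to *Zfp36* (0.022), *Agtrap* to *Zfp36l1* (0.044), *Becn1* to *Khsrp* (0.055), *Mga* to *Zc3h12a* (0.070), *Tns1* to *Elavl1* (0.081) and *Ythdf2* to *Btg2* (0.10). With 5 libraries and about 4618 candidates each, close neighbours are found for most patterns, and these pairs are a description only.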

How the data were processed

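SLAMseq libraries of CF, 3 labeled and 2 unlabeled, were grouped by the submitters' labels. The authors made 3′ end libraries with unique molecular identifiers, mapped them to mm39 with SLAM-DUNK 0.4.3 and removed duplicates with UMI-tools. They deposited, per 3′ UTR interval, counts of reads, reads with a conversion, covered T positions and conversions, the T>C rate as a fraction, and CPM relative to a number of reads that was 7.58 to 28.9 times the reads counted here. The source of the intervals is not given in the sources used here.

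Repeated rows were dropped. All 40380 intervals on reference chromosomes matched GRCm39 in T content. Rates were tested between groups by a likelihood ratio under a beta-binomial model (at least 1 covered T in every library, two-sided, 1 shared overdispersion). For read counts, taken on 1 interval per gene, the quasi-likelihood test of edgeR was used (TMM, filterByExpr). Both were adjusted by Benjamini-Hochberg over all features, with a threshold of 0.05. Levels were recomputed as CPM relative to the counted reads. Where no conversion was seen, the limit is 3 conversions. No source says that samples with 1 number share a preparation, and p-values measure only the spread between these libraries. The smallest exact p for 3 against 2 libraries is 0.1.

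The members and lists were chosen with earlier results of these data known. Genes named are the 9 members, the 3 highest and 3 lowest machinery rates at 1000 or more covered T positions and any machinery gene called for reads, the gene most alike each member (pseudocount 1, at least 20 reads in every library), and the ARE-bearing list. *Dcp1b*, *Edc4*, *Exosc2* and *Exosc6* were named after their values were seen. Results for some genes under this rule are not reported here. Tools were Python 3.11.15 (scipy 1.17.1, numpy 2.4.6, matplotlib 3.10.9, pandas 2.3.3) and R 4.3.3 (DESeq2 1.42.0, limma 3.58.1, edgeR 4.0.16). Alternatives were unadjusted p, coverage minimums, limma on log odds (pseudocount 0.5), DESeq2, other scalings, no filter, summed intervals, a replicate block and leaving out each library.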

Additional observations from a re-analysis of the deposited data

How the results depend on the processing

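All 9 members kept a higher T>C rate at an adjusted p below 0.05 without each library in turn and with limma on log odds, with or without a replicate block (9 called), while minimums of 100 and 1000 covered T positions left 8 and 3 members to test, all called. At 1000 positions 3154 intervals in all and 15 of the machinery list were called, since fewer were tested. For reads, the calls depended on a replicate block. With it (1 residual degree of freedom) edgeR called 528 genes higher and 618 lower, 2 members higher (*Btg2*, log2 fold change 1.25, adjusted p 6.75e-08, and *Elavl1*, 0.66, adjusted p 0.0225) and 6 machinery genes higher. Deviations of same-numbered libraries from their group means correlated at 0.874 and 0.782 across genes. Labeled replicate 3 and unlabeled replicate 2, which share no number, correlated at 0.638. Centring makes the deviations of the 2 unlabeled libraries mirror images, so these values are not separate. With 2 pairs and labels that name no shared preparation, they do not show that the numbers pair the samples. DESeq2 called 13 genes higher and 5 lower, and gave no adjusted p for *Zc3h12a* and *Zfp36l2*. Unadjusted p called 279 higher and 305 lower, with 1 member and 4 machinery genes higher. With the replicate block the log2 fold change of *Zfp36* was 0.040 and of *Zfp36l2* 0.066, and that of *Tia1* was -0.011 without scaling beyond counted reads. Leaving out 1 library gave ranges of -0.39 to 0.044 (*Zfp36*), -2.09 to 0.55 (*Zfp36l2*), -0.19 to 0.24 (*Tia1*), -0.25 to 0.030 (*Pum2*) and -0.052 to 0.61 (*Zc3h12a*), and the cause was not tested. Depth limits *Zfp36l2* and *Zc3h12a*, with 63 and 111 covered T positions in their shallowest libraries.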
